A study of Mus musculus with 6 samples.

Results

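Ribosome biogenesis and nucleolar factors are described here through 38 genes that make, modify and assemble ribosomal RNA. They were taken as a list of symbols, and all mouse transcripts that GENCODE release M21 gives to a symbol were summed in each library. All 38 were listed, of 11236 gene symbols in the table, and each averaged 1 or more across the 6 libraries, which is the filter on low values.

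BUMPT, an established mouse cell line from the kidney's proximal tubule epithelium, was sequenced as RNA in 2 groups of 3 libraries. One group is called NC, an abbreviation left unexplained, and the second tRF-Val, for tRF-Val-TAC-004, which is cut from the transfer RNA for valine. The labels give no dose, time, strain, passage or clone, and leave unsaid if the fragment was raised or inhibited. Separate cultures are not mentioned either, and the p-values cover the spread of these libraries alone, part of which may be technical. The series asked what the fragment acts on in apoptosis, and does not name ribosome biogenesis.

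The values are abundances scaled to the library by the authors, not read counts, and depth is unknown for every library. NC 3 stood apart, with a Pearson r of 0.903 and 0.915 to NC 1 and NC 2 across 10405 genes, against 0.974 between those 2. Mitochondrially encoded transcripts took 17.5% of the mouse values in NC 3 and 3.16% to 6.58% in the other libraries. Values without NC 3 are given for members whose fold change then turned in sign or moved by over 1.5 times, or whose groups went from overlap to none. Of the markers of proximal tubule, Aqp1 and Pax8 were listed, while Lrp2, Cubn and Slc34a1 were not; all 7 epithelial markers were listed, with summed values of 425 to 630.0 in NC and 732 to 874 in tRF-Val. Markers of leukocytes were listed for 4 of 10 (summed 8.29 to 23.5 in NC and 34.1 to 40.9 in tRF-Val, with Ptprc not listed), of fibroblasts for 2 of 7 and of endothelium for 1 of 5. Their part in the results was not tested.

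Ribosomes begin in the nucleolus, where RNA polymerase I copies the ribosomal DNA into a long precursor. Small nucleolar ribonucleoproteins (snoRNPs) of the box C/D class methylate its riboses and those of the box H/ACA class turn uridines into pseudouridines. The small subunit (SSU) processome folds and cleaves the part that becomes the small subunit, other factors assemble the large subunit, and the last steps finish in the cytoplasm. Proximal tubule cells carry many transporters and rebuild after injury by growth and division, for which new ribosomes are needed. Many genes of this pathway are known targets of the transcription factor Myc, which binds the E-box CACGTG.

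No member passed the test over all genes. In limma on log2(value + 1), with Benjamini-Hochberg adjustment over 10405 genes and a threshold of 0.05, 0 of 38 members were higher and 0 were lower, where 0.0577% of all genes were called higher and 0.202% lower. At an unadjusted p under 0.05 there were 10 members, or 26.3%, where 27.8% of all genes met that p. Of these 10, 7 had positive fold changes (Fbl, Nhp2, Nop10, Gar1, Rrp12, Nop16 and Rrp1) and 3 negative ones (Polr1a, Utp15 and Tsr1); over all genes 12.2% were higher and 15.6% lower at that p. The share of members at that p was thus near that of all genes.

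The groups did not overlap in 17 of 38 members, 9 with tRF-Val higher and 8 with tRF-Val lower. That is 44.7% of the members, against 42.5% of all genes tested, where 20.3% were higher and 22.1% lower. Of the 38 fold changes 22 were positive and 16 negative, with a median of 0.12, against 0.01 over all genes, of which 51.1% were positive. The fold changes ran from -1.49 for Tsr1 to 1.02 for Nop10, and in 30 of 38 members the groups differed by less than 1.5-fold on that scale. The members took 0.795%, 0.837% and 1.13% of the mouse values over NC 1, 2 and 3, against 0.756%, 0.794% and 0.852% over tRF-Val 1, 2 and 3. NC 3 was highest, and the other libraries of both groups overlapped. This share leans on Npm1, which alone held 2159 of the members' sum of 4396 in NC 3. In the other libraries Npm1 was at 969 to 1118, in sums of 3083 to 3708. Rescaling without mitochondrial transcripts moved the median of all genes to -0.20 and that of the members to -0.13, with 14 of 38 positive, so the members' median lay 0.065 above that of all genes, against 0.104 with the values as deposited. That step also brought the libraries to equal sums. As deposited, the mouse values summed to 387611 to 389669 over the NC libraries and 421201 to 444539 over the tRF-Val libraries. The part of each in the move was not tested.

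**Figure D1:**
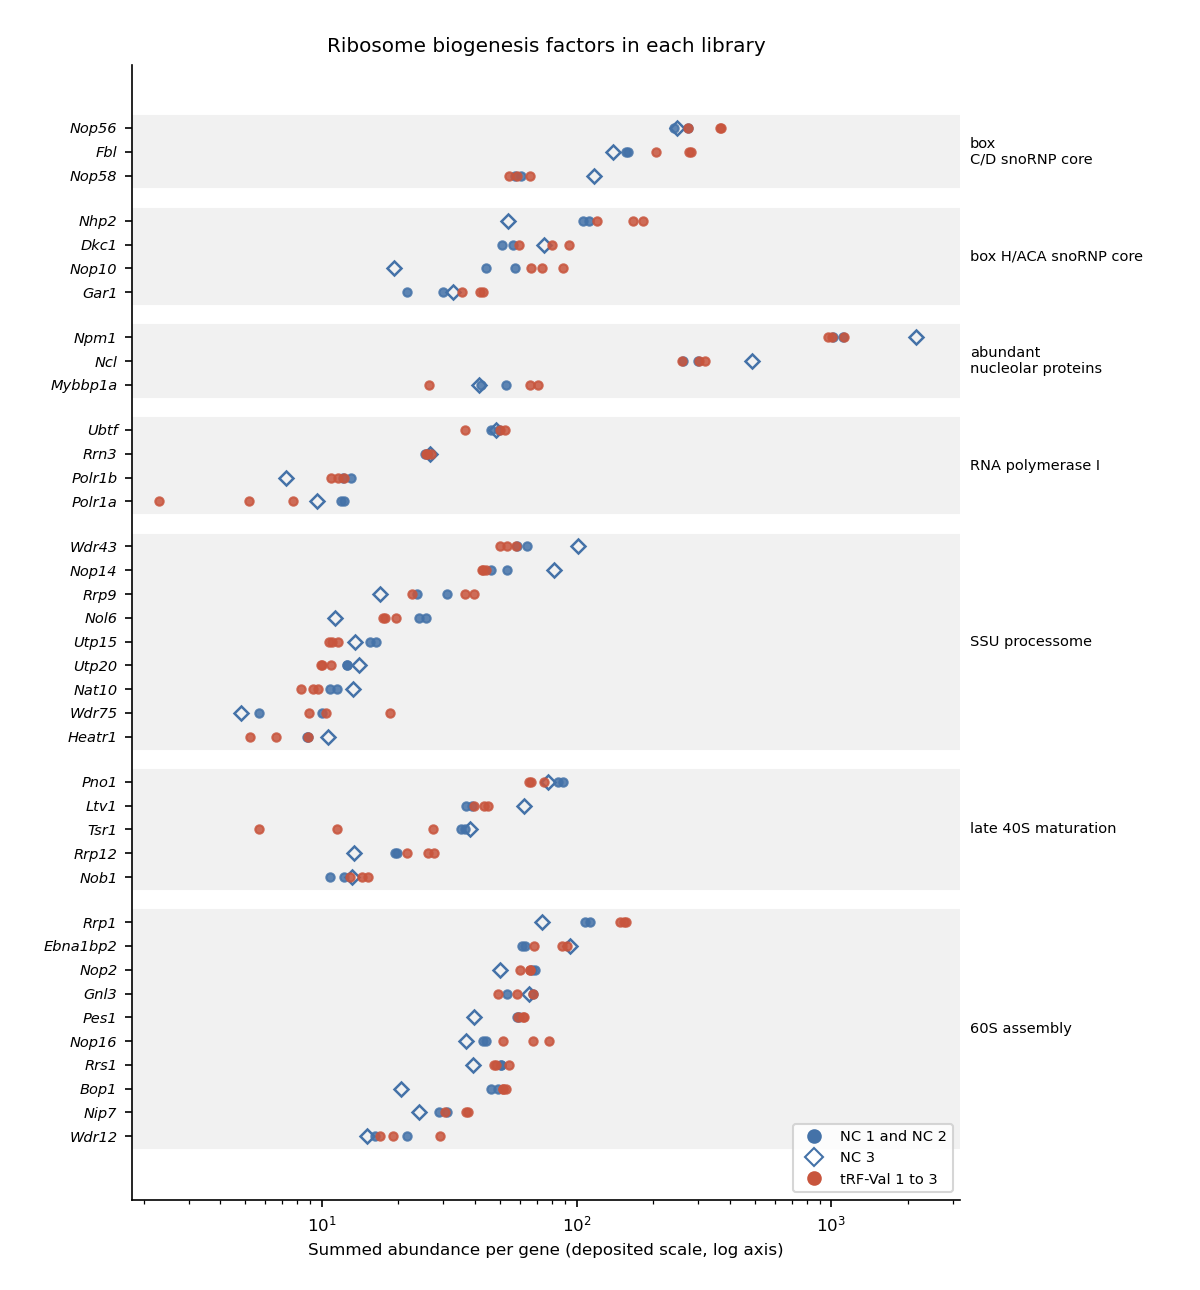
Summed abundance of each of the 38 members in each library, on a log axis, grouped by role and ordered by mean within a role; blue points are NC 1 and NC 2, open blue diamonds NC 3 and red points the 3 tRF-Val libraries. The members span 2.3 (Polr1a in tRF-Val 3) to 2159 (Npm1 in NC 3), and NC 3 is the lowest or the highest library for 27 of them.

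Without NC 3, 1 member passed and no other. Rrp1, a nucleolar protein of large subunit processing, stood at 0.46 (log2) and reached an adjusted p of 0.0458 by limma, where 2.73% of all genes were called higher and 2.97% lower in that fit. The sign of 6 members changed on leaving NC 3 out, namely Nop58, Ncl, Polr1b, Ltv1, Nop2 and Rrs1, all with fold changes between -0.11 and 0.17 in that fit. The number of positive fold changes was again 22, and the median was 0.05, while 43.9% of all genes were positive and their median was -0.08. At an unadjusted p under 0.05 there were then 7 members higher and 4 lower (15.9% and 19.7% of all genes), and 13 higher and 10 lower had groups that did not overlap (24.7% and 33.5% of all genes). NC 3 was the lowest library for 16 members and the highest for 11, 71.1% together, against 68.6% of all genes tested.

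**Figure D2:**
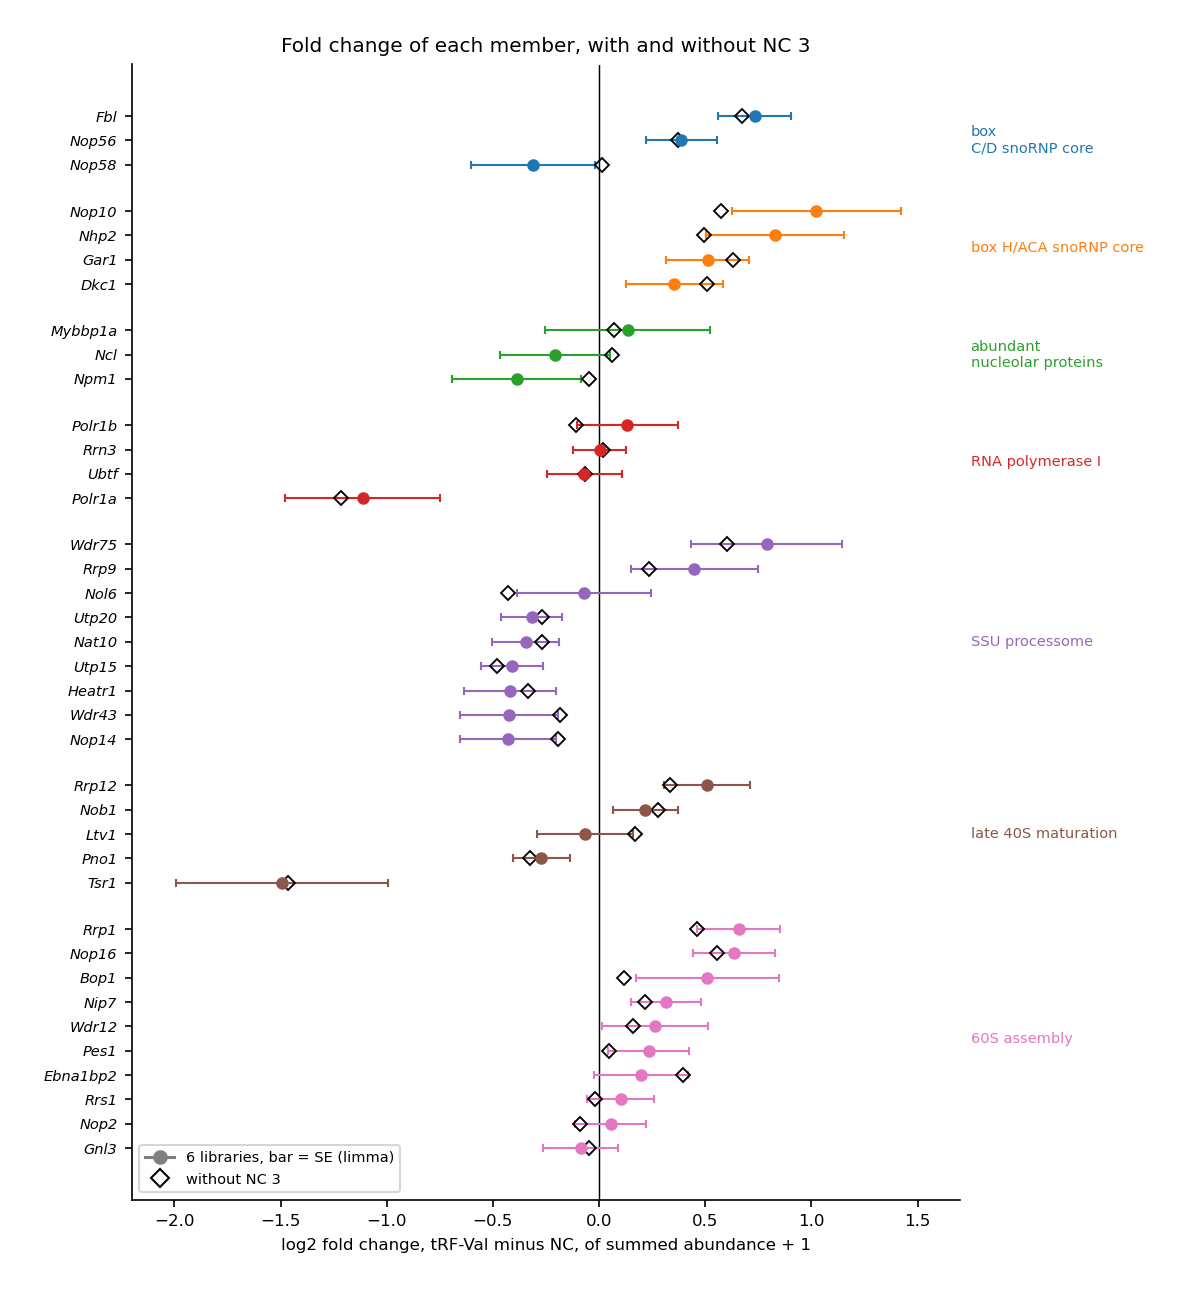
Log2 fold change of each member, tRF-Val minus NC (log2 of value + 1), with the standard error from limma as a bar; open diamonds are the fold changes without NC 3 and colours mark the role. All 4 box H/ACA members and 9 of 10 large subunit members lie above 0 with all libraries (7 of 10 without NC 3 and 5 of 10 after rescaling without mitochondrial transcripts for the latter; 3 of 4 with the length and GC trend removed for the former), 7 of 9 SSU processome members lie below it (6 of 9 with that trend removed), and no member passed the adjusted test.

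In the box H/ACA snoRNP core all 4 members had positive fold changes, under each alternative except removal of the length and GC trend, where 3 of 4 did and Gar1 was at -0.18. Dkc1 encodes dyskerin, the pseudouridine synthase, and Nhp2, Nop10 and Gar1 encode its partner proteins. The median of the 4 fold changes was 0.67, with 0.54 without NC 3. None of them passed. The 250 bases before the start of 3 of them, Nhp2, Nop10 and Gar1, are shown because in these every tRF-Val library lay above every NC library; sequences are RefSeq's on GRCm38.p6, 5′ to 3′ on the gene's strand, and capitals mark the letters CCGGAAG or their reverse complement, the core bound by ETS family transcription factors.
Nhp2, chr11:51619523-51619772, plus strand: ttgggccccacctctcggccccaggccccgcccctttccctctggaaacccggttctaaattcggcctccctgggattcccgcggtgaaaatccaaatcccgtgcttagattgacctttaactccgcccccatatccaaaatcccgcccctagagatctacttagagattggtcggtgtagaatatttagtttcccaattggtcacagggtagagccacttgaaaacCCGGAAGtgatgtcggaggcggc
Nop10, chr2:112261676-112261925, plus strand: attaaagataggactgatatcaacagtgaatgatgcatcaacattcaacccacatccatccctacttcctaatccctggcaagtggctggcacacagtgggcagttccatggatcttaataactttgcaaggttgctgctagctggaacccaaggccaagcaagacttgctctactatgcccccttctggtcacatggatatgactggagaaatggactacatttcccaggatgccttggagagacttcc
Gar1, chr3:129831397-129831646, minus strand: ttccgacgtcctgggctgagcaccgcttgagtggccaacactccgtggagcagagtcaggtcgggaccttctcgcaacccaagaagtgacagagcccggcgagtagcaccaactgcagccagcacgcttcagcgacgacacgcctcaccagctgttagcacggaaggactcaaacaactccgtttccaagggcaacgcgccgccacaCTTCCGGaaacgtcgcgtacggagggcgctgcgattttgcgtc
The core stands once before Nhp2, its first base at -23 from the start, and once before Gar1, at -43, and these letters are not in the window of Nop10. Over the 300 bases from 250 before to 50 after the start, 9 of the 32 members with an entry (28.1%) held the core on either strand, against 22.4% of 8228 tested genes with an entry.

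Nop10, the smallest protein of the particle, was at 57.2, 44.2 and 19.2 over NC 1, 2 and 3, against 73.3, 88.2 and 66.3 over tRF-Val 1, 2 and 3. Every tRF-Val library lay above every NC library, and NC 3 was lower than both other NC libraries (log2 fold change 1.02, SE 0.397, adjusted p 0.164 by limma). Without NC 3 the fold change was 0.58, with an adjusted p of 0.0889 (alternatives 0.0889 to 0.386). Nhp2 was at 106, 112 and 53.6 over NC 1, 2 and 3, against 120.4, 182 and 167 over tRF-Val 1, 2 and 3. Again the groups did not overlap, NC 3 was the low library, and the fold change went from 0.83 to 0.49 without it (adjusted p 0.167 and 0.139 by limma).

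Gar1, whose protein carries stretches rich in glycine and arginine, was at 29.9, 21.7 and 32.9 over NC 1, 2 and 3, against 41.8, 43.1 and 35.4 over tRF-Val 1, 2 and 3. The groups were close but did not overlap, the highest NC library lying at 32.9 and the lowest tRF-Val library at 35.4 (log2 fold change 0.51, SE 0.196, adjusted p 0.16 by limma). The sum covers transcripts that traded places between libraries: the longest listed one, of 1271 bases, made up 82.1%, 81.4% and 7.85% of Gar1 over NC 1, 2 and 3, against 57.3%, 54.4% and 71% over tRF-Val 1, 2 and 3. In NC 3 a transcript of 685 bases took its place, with 85.7%. Dkc1 was at 51, 56.1 and 74.2 over NC 1, 2 and 3, against 59.6, 93.7 and 80.4 over tRF-Val 1, 2 and 3. Here NC 3 was the high NC library and lay within the range of tRF-Val, so the groups overlapped (log2 fold change 0.35, and 0.51 without NC 3, when they did not overlap).

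Abundances of partner genes can be set against each other within a library, since each abundance measure of StringTie is per transcript length and a ratio does not depend on the scaling of the library. The ratio of Nhp2 to Dkc1 was at 2.09, 1.99 and 0.722 over NC 1, 2 and 3, against 2.02, 1.94 and 2.07 over tRF-Val 1, 2 and 3. It lay between 1.94 and 2.09 in 5 libraries and was lower in NC 3 alone. The ratio of Nop10 to Dkc1 was at 1.12, 0.787 and 0.259 over NC 1, 2 and 3, against 1.23, 0.941 and 0.825 over tRF-Val 1, 2 and 3, and that of Gar1 to Dkc1 at 0.586, 0.386 and 0.443 over NC 1, 2 and 3, against 0.701, 0.459 and 0.44 over tRF-Val 1, 2 and 3. In each of these 3 ratios the groups overlapped.

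The core of the box C/D snoRNP was uneven. Fbl encodes fibrillarin, the methyltransferase, and had the smallest p of all 38 members. It was at 156, 159 and 139 over NC 1, 2 and 3, against 205, 282 and 275 over tRF-Val 1, 2 and 3. The NC libraries lay within 139 to 159 and the lowest tRF-Val library at 205. The means were 151 ± 11 (SD, n = 3) for NC, against 254 ± 42.6 (SD, n = 3) for tRF-Val (log2 fold change 0.73, SE 0.172, adjusted p 0.0896 by limma; alternatives 0.0651 to 0.81), and without NC 3 the fold change was 0.67 with an adjusted p of 0.0651. Fbl (ENSMUSG00000046865.7, chromosome 7 at 28169710 to 28179269 on the plus strand on GRCm38) was listed with 2 transcripts, of which the longer of 1197 bases held nearly all of the value.

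Nop56 and Nop58 encode the related scaffold proteins that place fibrillarin on the guide RNA. Nop56 was at 242, 274 and 249 over NC 1, 2 and 3, against 274, 366 and 368 over tRF-Val 1, 2 and 3. The groups did not overlap, though tRF-Val 1 and NC 2 were nearly equal, and the gene did not pass (log2 fold change 0.39, SE 0.168, adjusted p 0.192 by limma). Of its 5 listed transcripts, one of 405 bases was listed at 0 in NC 3 and was at 22.9 and 36.7 in NC 1 and 2 and 40.3 to 61.3 in tRF-Val. Nop58 was at 57.5, 60.3 and 117 over NC 1, 2 and 3, against 54.3, 65.9 and 58.6 over tRF-Val 1, 2 and 3. NC 3 was far above the others, and the remaining 5 libraries overlapped, so the fold change went from -0.31 to 0.01 without NC 3.

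Within libraries, the scaffold genes stood in different proportions in the groups. The ratio of Nop56 to Nop58 was at 4.21, 4.54 and 2.13 over NC 1, 2 and 3, against 5.05, 5.56 and 6.27 over tRF-Val 1, 2 and 3. The ratio of Fbl to Nop58 was at 2.72, 2.63 and 1.19 over NC 1, 2 and 3, against 3.77, 4.27 and 4.7 over tRF-Val 1, 2 and 3. In both ratios every tRF-Val library lay above every NC library, with NC 3 the lowest, and this held for NC 1 and NC 2 alone. The listed transcripts of Nop58 have an abundance-weighted length of 6356 bases, because one of 9507 bases was the most abundant, against 1285 bases for Nop56 and 1187 for Fbl. Longer transcripts had lower fold changes over all genes, as given below. With the length and GC trend removed, the fold change of Nop58 was 0.25, above 0.06 for Nop56 and 0.10 for Fbl. With NC 3 also left out they were 0.46, 0.13 and 0.34 in the same order. The ratios were not recomputed after that step, and the part of length in them was not tested.

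**Figure D3:**
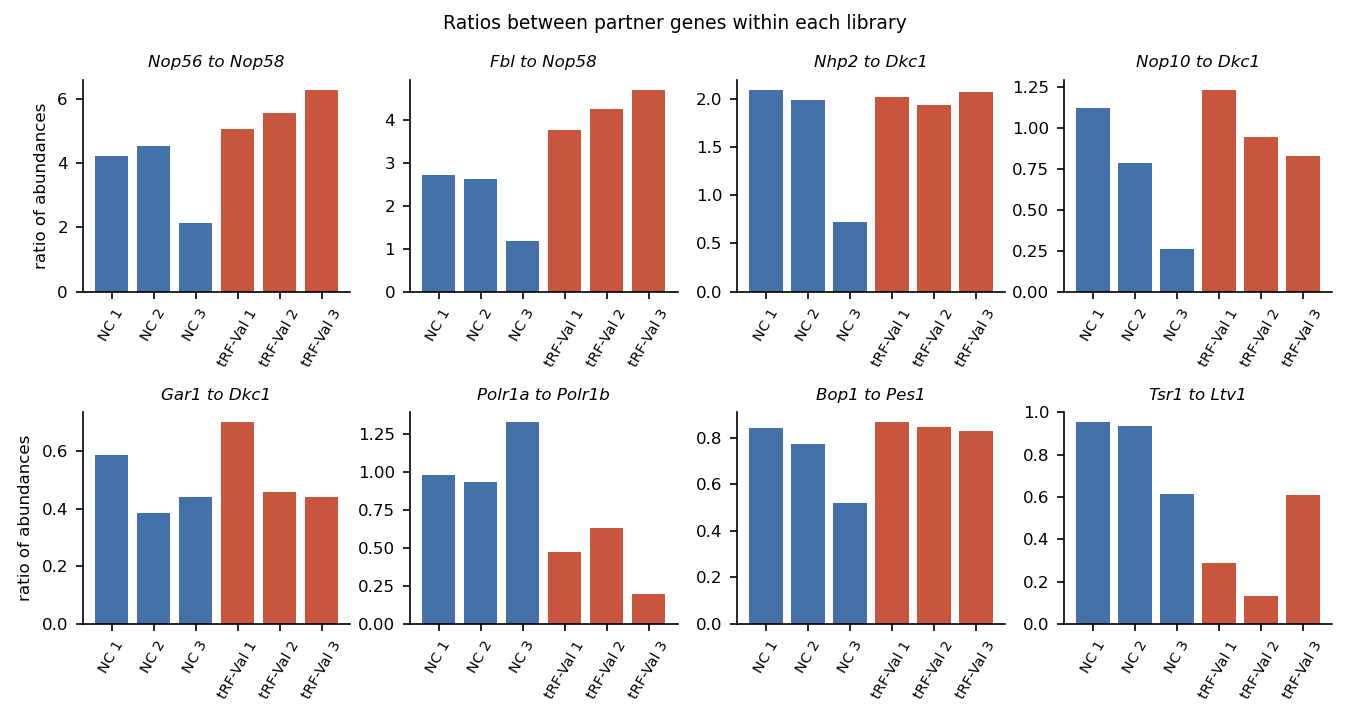
Ratios of summed abundance between partner genes in each library, as bars from 0, with NC in blue and tRF-Val in red. Groups do not overlap for Nop56 to Nop58, Fbl to Nop58, Polr1a to Polr1b and Tsr1 to Ltv1, and they overlap for the other 4, in which NC 3 is the lowest library except for Gar1 to Dkc1. The ratios of Wdr12 to Pes1, Npm1 to Ncl and Rrp1 to Ebna1bp2 were also taken and are not plotted, and in each of them the groups overlap.

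Of the 3 abundant nucleolar proteins, 2 were far higher in NC 3 than elsewhere, and their other libraries overlapped between the groups. Npm1 encodes nucleophosmin, a chaperone of the granular part of the nucleolus, and had the highest values of the members. It was at 1019.8, 1113 and 2159 over NC 1, 2 and 3, against 1009, 969 and 1118 over tRF-Val 1, 2 and 3. NC 3 was far above the other 5 libraries, which lay within 969 to 1118 and did not separate by group. The log2 fold change was -0.39 (SE 0.303) with all libraries and -0.05 without NC 3, and the adjusted p by limma was 0.421 and 0.758.

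Ncl encodes nucleolin, which binds the precursor RNA, and is given here although the rule for values in every library did not take it. It was at 261, 299.5 and 490.1 over NC 1, 2 and 3, against 259.6, 301 and 318 over tRF-Val 1, 2 and 3. The pattern was that of Npm1, with NC 3 high and the other libraries overlapping, and the ratio of Npm1 to Ncl stayed between 3.21 and 4.4 in all 6 libraries. Mybbp1a, a nucleolar protein that binds RNA polymerase I and several transcription factors, was at 52.9, 42.4 and 41.4 over NC 1, 2 and 3, against 70.6, 26.3 and 66 over tRF-Val 1, 2 and 3. Its spread within tRF-Val exceeded the difference between the groups (log2 fold change 0.13, SE 0.387, adjusted p 0.833 by limma). Without NC 3 the fold change was 0.07 for Mybbp1a and 0.06 for Ncl, in place of -0.21.

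Among the 4 genes of RNA polymerase I transcription, Polr1a had the lowest fold change. It encodes the largest subunit of the enzyme and was at 11.9, 12.2 and 9.59 over NC 1, 2 and 3, against 5.18, 7.75 and 2.3 over tRF-Val 1, 2 and 3. All 3 tRF-Val libraries lay below all NC libraries, but they differed among themselves from 2.3 to 7.75. The means were 11.2 ± 1.43 (SD, n = 3) for NC, against 5.08 ± 2.72 (SD, n = 3) for tRF-Val (log2 fold change -1.11, SE 0.366, adjusted p 0.128 by limma; alternatives 0.0711 to 0.317), and without NC 3 the fold change was -1.21. The gene (ENSMUSG00000049553.11, chromosome 6 at 71909053 to 71984935 on the plus strand on GRCm38) was listed with 1 transcript of 9216 bases. This gave it the highest abundance-weighted length of the members. An annotated antisense gene overlaps the gene's span, introns included, over 2631 bases, and overlap with its exons was not measured. The labels do not state that strand was used in counting.

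Polr1b, the second largest subunit, was at 12.2, 13 and 7.22 over NC 1, 2 and 3, against 10.9, 12.3 and 11.6 over tRF-Val 1, 2 and 3. It overlapped between the groups, with NC 3 the low library, and its fold change went from 0.13 to -0.11 without NC 3. The ratio of Polr1a to Polr1b was at 0.981, 0.939 and 1.33 over NC 1, 2 and 3, against 0.475, 0.631 and 0.198 over tRF-Val 1, 2 and 3, so the largest subunit was the less abundant of the pair in each tRF-Val library, which was also so in NC 1 and NC 2 by a small margin but not in NC 3. Ubtf, whose protein bends and opens the ribosomal DNA, was at 49.8, 46.4 and 48.2 over NC 1, 2 and 3, against 50.0, 36.4 and 52.6 over tRF-Val 1, 2 and 3, and the groups overlapped (log2 fold change -0.07). Ubtf was spread over 8 listed transcripts whose shares moved between libraries of 1 group. One of 2759 bases held 35.2%, 2.84% and 82.7% of it over the NC libraries. The values given for Ubtf are the sum over its transcripts, as for every gene.

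Rrn3, the initiation factor that joins the polymerase to its promoter and responds to growth signals, had the fold change nearest to 0, and its values are given for that reason, outside the rule. It was at 26.2, 25.4 and 26.6 over NC 1, 2 and 3, against 25.7, 25.9 and 26.7 over tRF-Val 1, 2 and 3. The 6 libraries lay within 25.4 to 26.7, NC 3 included, and the log2 fold change was 0.0020 (SE 0.125), or 0.02 without NC 3.

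The members from the SSU processome had mostly negative fold changes. Of its 9 members 7 were negative and 2 positive (3 positive with the length and GC trend removed, and 6 with NC 3 also left out), the median was -0.35, or -0.27 without NC 3, and the groups did not overlap in 5, Wdr43, Utp15, Utp20, Nop14 and Nat10, each lower in tRF-Val, where 22.1% of all genes were lower without overlap. None passed. Utp15, part of the subcomplex that also supports transcription of the ribosomal DNA, was at 15.5, 16.3 and 13.6 over NC 1, 2 and 3, against 11.6, 11 and 10.7 over tRF-Val 1, 2 and 3. The tRF-Val libraries lay close together and below each NC library (log2 fold change -0.41, SE 0.147, adjusted p 0.144 by limma; alternatives 0.0566 to 0.965).

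Wdr43, from the same subcomplex and the most abundant of these members, was at 58.2, 64.2 and 101 over NC 1, 2 and 3, against 49.9, 53.4 and 58.1 over tRF-Val 1, 2 and 3. NC 3 was high, and NC 1 and tRF-Val 3 were nearly equal although the groups did not overlap (log2 fold change -0.42, and -0.18 without NC 3). Nop14, a processome component, was at 46.2, 53.4 and 81.8 over NC 1, 2 and 3, against 43.1, 42.7 and 44.2 over tRF-Val 1, 2 and 3. The pattern was the same, with a fold change of -0.43 and of -0.19 without NC 3 (adjusted p 0.256 and 0.214 by limma). Wdr75, another member of the subcomplex, was at 5.67, 10.0 and 4.81 over NC 1, 2 and 3, against 10.4, 8.92 and 18.5 over tRF-Val 1, 2 and 3; tRF-Val 3 was the high library, and the groups overlapped (log2 fold change 0.79, SE 0.354, adjusted p 0.205 by limma).

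The remaining SSU processome members were described by their ranges. Utp20 was at 12.6 to 14 in NC and 9.93 to 10.9 in tRF-Val, Heatr1 at 8.75 to 10.6 in NC and 5.23 to 8.85 in tRF-Val, and Nol6 at 11.3 to 25.6 in NC and 17.4 to 19.5 in tRF-Val. Nat10, which acetylates cytidines of the small subunit RNA and of transfer RNA, was at 10.8 to 13.3 in NC and 8.29 to 9.66 in tRF-Val. Rrp9, a protein of the U3 snoRNP, was at 17 to 31 in NC and 22.6 to 39.5 in tRF-Val. Their fold changes were -0.32, -0.42, -0.07, -0.35 and 0.45 in that order. For Nol6 the value without NC 3 was -0.43, since NC 3 lay at 11.3, below all other libraries, and the groups then did not overlap. For Rrp9 it was 0.23, with overlap in both cases.

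**Figure D4:**
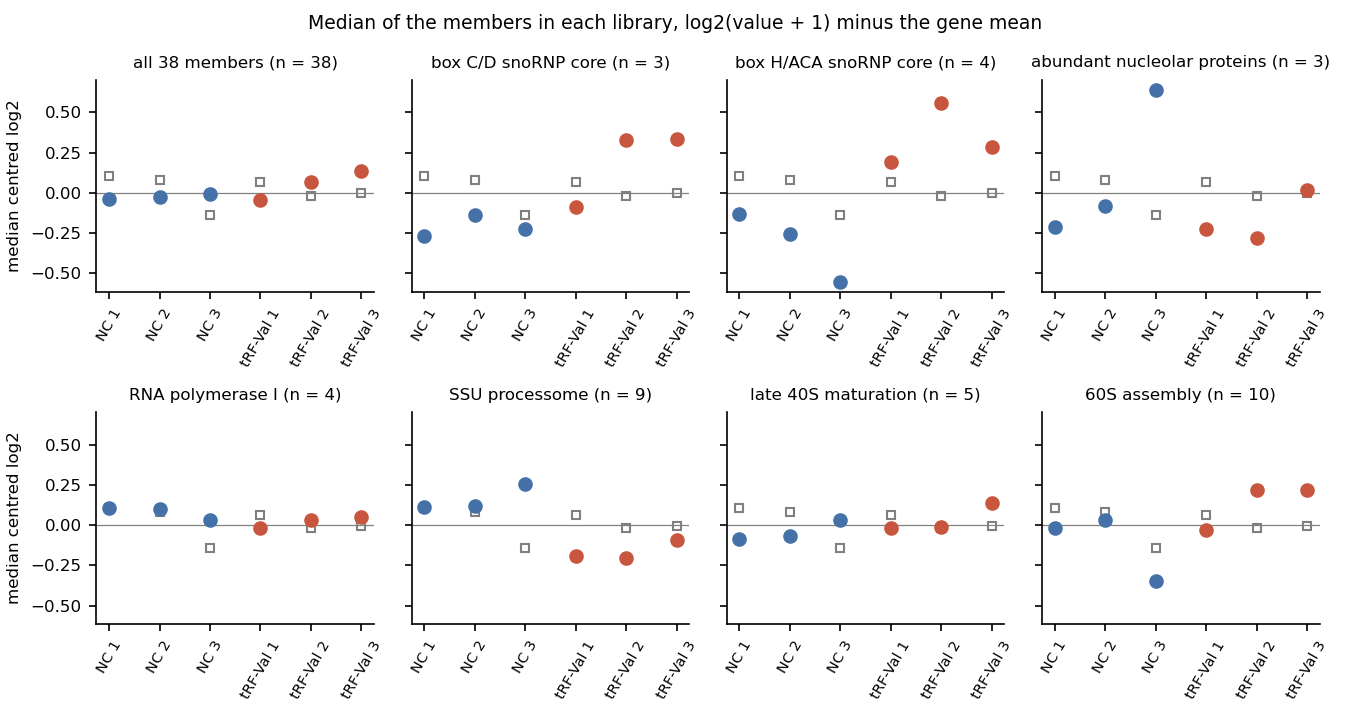
Median of log2(value + 1), centred on each gene's mean over the 6 libraries, for the 38 members and for each role; blue circles are NC, red circles tRF-Val and grey squares the median of all 10405 genes tested. The SSU processome was at 0.111, 0.12 and 0.258 over NC, against -0.188, -0.204 and -0.094 over tRF-Val, the box H/ACA core ran the other way, and the 38 members together stayed within -0.046 to 0.136.

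In late maturation of the small subunit, Tsr1 had the lowest fold change of all members. Its protein resembles a GTPase and keeps the immature subunit from translating. Tsr1 was at 35.1, 36.6 and 38.1 over NC 1, 2 and 3, against 11.5, 5.67 and 27.4 over tRF-Val 1, 2 and 3. Every tRF-Val library was below every NC library, but within tRF-Val the values ran from 5.67 to 27.4, and the standard error was correspondingly wide (log2 fold change -1.49, SE 0.5, adjusted p 0.131 by limma; alternatives 0.0787 to 0.317). The means were 36.6 ± 1.53 (SD, n = 3) for NC, against 14.9 ± 11.3 (SD, n = 3) for tRF-Val, and without NC 3 the fold change was -1.47. The gene (ENSMUSG00000038335.13, chromosome 11 at 74898071 to 74909342 on the plus strand on GRCm38) had 1 listed transcript of 3389 bases and holds 2 snoRNA genes. Its span, introns included, overlaps that of Srr on the other strand over 2984 bases.

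The other late factors were mixed. Rrp12, which in yeast helps export both subunits, was at 19.3, 19.8 and 13.3 over NC 1, 2 and 3, against 21.5, 27.5 and 26.2 over tRF-Val 1, 2 and 3; the groups did not overlap, with NC 3 low (log2 fold change 0.51, SE 0.203, adjusted p 0.17 by limma), and the fold change was 0.34 without it. Pno1, the partner of the nuclease Nob1 in the final cleavage, was at 84.2, 88.2 and 77.1 over NC 1, 2 and 3, against 74.6, 66.5 and 65.1 over tRF-Val 1, 2 and 3; the groups did not overlap, by a narrow margin (log2 fold change -0.27, SE 0.133, adjusted p 0.229 by limma). Nob1 itself was at 10.8 to 13.1 in NC and 12.9 to 15.2 in tRF-Val and Ltv1, an assembly factor shed before the last steps, at 36.8 to 62.2 in NC and 39.6 to 45.1 in tRF-Val, and both overlapped with all libraries. Without NC 3 neither overlapped, each higher in tRF-Val, and the fold changes went from 0.22 to 0.28 for Nob1 and from -0.07 to 0.17 for Ltv1. The ratio of Tsr1 to Ltv1 was at 0.953, 0.938 and 0.613 over NC 1, 2 and 3, against 0.29, 0.131 and 0.608 over tRF-Val 1, 2 and 3; NC 3 and tRF-Val 3 nearly met, although the groups did not overlap.

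The assembly factors of the large subunit had positive fold changes in 9 of 10 cases, with a median of 0.25, or 0.14 without NC 3, where 7 of 10 were positive. The count depended on scaling: 6 of 10 were positive under quantile normalization, 7 with the length and GC trend removed and 5 after rescaling without mitochondrial transcripts. NC 3 was the lowest library for 8 of the 10. Rrp1, the member that passed without NC 3, was at 113, 108 and 73 over NC 1, 2 and 3, against 148, 153 and 157 over tRF-Val 1, 2 and 3. The groups did not overlap, and the tRF-Val libraries lay close together, at 97.9 ± 21.7 (SD, n = 3) for NC, against 152 ± 4.55 (SD, n = 3) for tRF-Val. With all libraries the log2 fold change was 0.66 (SE 0.195) with an adjusted p of 0.113 by limma, and over the 17 alternatives that p ran from 0.0458 to 0.317. Rrp1 (ENSMUSG00000061032.9, chromosome 10 at 78400384 to 78413043 on the minus strand on GRCm38) was listed with 1 transcript of 1984 bases.

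Nop16, another nucleolar factor of this subunit, was at 36.9 to 44.3 in NC and 51.3 to 77.9 in tRF-Val, without overlap, and did not pass (log2 fold change 0.63, SE 0.192, adjusted p 0.114 by limma). The 3 genes of the complex of Bop1, Pes1 and Wdr12, which is needed for processing of the large subunit precursor, had fold changes without NC 3 of 0.12, 0.05 and 0.16. Bop1 was at 20.5 to 49.3 in NC and 51.2 to 52.8 in tRF-Val, with NC 3 at 20.5 against 49.3 and 46.1 in NC 1 and NC 2, and its fold change went from 0.51 to 0.12 without NC 3. Pes1 was at 39.5 to 59.5 in NC and 59.1 to 62.2 in tRF-Val and Wdr12 at 15 to 21.7 in NC and 17 to 29 in tRF-Val. The ratio of Bop1 to Pes1 was at 0.841, 0.774 and 0.518 over NC 1, 2 and 3, against 0.867, 0.849 and 0.83 over tRF-Val 1, 2 and 3, again with NC 3 low.

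Gnl3 encodes nucleostemin, a GTP-binding protein of the nucleolus, and had the one negative fold change of the role. It was at 53.2, 67.3 and 65.1 over NC 1, 2 and 3, against 49.3, 67.4 and 58.5 over tRF-Val 1, 2 and 3, and the groups overlapped (log2 fold change -0.09, SE 0.175, adjusted p 0.761 by limma). Its longest listed transcript, of 1947 bases, was at 44.4, 52 and 52.7 over NC 1, 2 and 3, against 40.2, 42.8 and 40.7 over tRF-Val 1, 2 and 3, so that transcript alone was lower in each tRF-Val library while one of 597 bases ran higher in tRF-Val 2 and 3. Nop2, a methyltransferase of the large subunit RNA, was at 49.9 to 68.7 in NC and 59.8 to 65.7 in tRF-Val, and Rrs1, which helps bring in the particle of the smallest ribosomal RNA, at 39.2 to 50.7 in NC and 47.3 to 54.4 in tRF-Val. Nip7 was at 24.1 to 31 in NC and 30.5 to 37.6 in tRF-Val and Ebna1bp2 at 61.2 to 94.3 in NC and 68.2 to 92 in tRF-Val. The fold changes of these 4 were 0.06, 0.10, 0.31 and 0.20, and their groups overlapped with all libraries. Without NC 3 the fold changes were -0.09, -0.02, 0.21 and 0.40, and the groups then did not overlap for Nop2, lower in tRF-Val, and for Ebna1bp2, higher in it. For Gnl3 the value without NC 3 was -0.05.

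The E-box CACGTG, which reads the same on both strands, stood in the 300-base window of 9 of the 32 members that have a promoter entry (28.1%), against 12.1% of 8228 tested genes with an entry and 8.09% of 27025 genes of all kinds. The windows are shown because this is the letter sequence Myc is known to bind, in RefSeq's sequence on GRCm38.p6 with up to 12 bases on each side and the E-box in capitals.
Ltv1, chr10:13193092-13193121, minus strand, first E-box base at +29 from the start: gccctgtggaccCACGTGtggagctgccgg
Mybbp1a, chr11:72441355-72441376, plus strand, first E-box base at +41 from the start: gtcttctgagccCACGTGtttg
Nop2, chr6:125131811-125131840, plus strand, first E-box base at -60 from the start: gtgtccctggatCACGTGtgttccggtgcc
Pes1, chr11:3963965-3963994, plus strand, first E-box base at +3 from the start: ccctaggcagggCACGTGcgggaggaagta
Pno1, chr11:17211540-17211564, minus strand, first E-box base at +38 from the start: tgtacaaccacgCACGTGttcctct
Rrn3, chr16:13780472-13780501, plus strand, first E-box base at -215 from the start: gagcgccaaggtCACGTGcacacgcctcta
Rrn3, chr16:13780639-13780668, plus strand, first E-box base at -48 from the start: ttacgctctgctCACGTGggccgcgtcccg
Tsr1, chr11:74898092-74898121, plus strand, first E-box base at +25 from the start: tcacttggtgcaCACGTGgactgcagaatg
Utp20, chr10:88826765-88826789, minus strand, first E-box base at +38 from the start: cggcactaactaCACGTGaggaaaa
Wdr43, chr17:71616220-71616249, plus strand, first E-box base at +18 from the start: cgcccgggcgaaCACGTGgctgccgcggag
The median GC content of the windows was 58% for the members and 61.3% for the tested genes. Of the 9 members with an E-box 4 had positive and 5 negative fold changes (median -0.07), and of the 23 without one 14 were positive and 9 negative (median 0.22). These are values as deposited, whose fold changes followed transcript length, as given below. With the length and GC trend removed, Tsr1 was at -1.23, Pno1 at -0.27, Nop2 at -0.13 and Wdr43 at -0.08. Ltv1 was then at 0.03, Utp20 at 0.18, Mybbp1a at 0.27, and Rrn3 and Pes1 at 0.31. The part of length in this split was not tested. A match of letters is a description and not a bound site. Fbl, Npm1, Bop1, Nol6, Rrp12 and Rrs1 had no entry.

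Myc itself was at 56.9, 65.4 and 59.1 over NC 1, 2 and 3, against 48.9, 47 and 50.3 over tRF-Val 1, 2 and 3. Each tRF-Val library lay below each NC library, and the gene did not pass (log2 fold change -0.30, SE 0.128, adjusted p 0.185 by limma). With the length and GC trend removed the fold change of Myc was -0.70, and with NC 3 also left out -0.44. The adjusted p by limma was then 0.164 and 0.102, and over all alternatives it ran from 0.0674 to 0.441.

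A list of 161 other genes of the pathway was set beside the members. Of these, 160 were tested, 0 were called higher and 0 lower by limma, and 37 (23.1%) had an unadjusted p under 0.05, 27 of them higher and 10 lower, where 12.2% and 15.6% of all genes were. Of the fold changes 101 (63.1%) were positive and 59 negative, with a median of 0.15, against 51.1% positive and a median of 0.01 over all genes. With the length and GC trend removed 110 were positive, and with NC 3 also left out 127, where 53.3% and 53.9% of all genes were. The groups did not overlap in 60 (37.5%), against 42.5% of all genes tested. Without NC 3, 4 passed, Fcf1, Nol9 and Utp18 higher and Mdn1 lower, and the median was 0.11. By list, the medians were 0.08 over 38 other SSU processome genes, 0.11 over 8 of late small subunit maturation, 0.14 over 49 of the large subunit, 0.19 over 17 of RNA polymerase I, 0.25 over 11 of snoRNP assembly and 0.15 over 26 of the exosome and RNase MRP. It was 0.25 over 11 genes of the Myc network and of the surveillance of ribosome assembly by p53. Without NC 3 these medians were, in the same order, -0.01, 0.03, 0.16, 0.03, 0.14, 0.28 and -0.01, so that of the SSU processome genes and that of the Myc and p53 list turned in sign.

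The genes of these lists with the smallest p were Fcf1 and Ngdn of the SSU processome, Tsr3 and Riok1 of late maturation, Mdn1 and Npm3 of the large subunit, Polr1d and Cd3eap of RNA polymerase I, Shq1 and Znhit6 of snoRNP assembly, and Pop5 and Xrn2 of RNA processing. In the last list they were Rpl11 and Myc. Mdn1, a very large ATPase that strips factors from the precursor of the large subunit, was at 6.33, 7.01 and 11.4 over NC 1, 2 and 3, against 3.97, 3.32 and 3.3 over tRF-Val 1, 2 and 3. Npm3, a relative of nucleophosmin, was at 103, 101 and 47.9 over NC 1, 2 and 3, against 136, 203 and 182 over tRF-Val 1, 2 and 3. Both separated by group in opposite directions, with log2 fold changes of -0.99 and 1.10, and neither passed with all libraries (adjusted p 0.0915 and 0.116 by limma). Polr1d, a small subunit shared by RNA polymerases I and III, was at 215, 212 and 172 over NC 1, 2 and 3, against 282, 354 and 333 over tRF-Val 1, 2 and 3. Its groups did not overlap, while those of Polr1a separated the other way (adjusted p 0.0898). The log2 fold changes of the others were 0.76 for Fcf1, 0.65 for Ngdn, 0.60 for Tsr3, -0.55 for Riok1, 0.66 for Cd3eap and 0.60 for Shq1. They were 0.42 for Znhit6, 1.7 for Pop5, -0.74 for Xrn2 and 0.67 for Rpl11.

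The fold changes of the members followed the length of their transcripts as those of other genes did. Spearman's rho between fold change and abundance-weighted transcript length was -0.54 over the 38 members and -0.56 over 10400 tested genes with a value, and without NC 3 it was -0.56 in both; these are correlations across genes of the same libraries, given as a description. The 12 members with transcripts under 2000 bases had a median fold change of 0.48, the 13 of 2000 to 3500 bases 0.10 and the 13 over 3500 bases -0.21. The roles differed in length as well, with a median of 1076 bases for the box H/ACA core, 2528 for the large subunit and 3879 for the SSU processome, against 2796 over all genes.

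When each library's trend with length and GC content was removed, no member passed and rho over the members was 0.15. The median fold change of the 3 length classes was then -0.02, 0.03 and 0.25. The SSU processome median went from -0.35 to -0.03 and that of the box H/ACA core from 0.67 to 0.42, while that of the large subunit went from 0.25 to 0.31. Among single members Fbl went from 0.73 to 0.10 and Utp15 from -0.41 to -0.01. Tsr1 was at -1.23, Polr1a at -0.71, Nop10 at 0.75 and Wdr75 at 1.02 after the same step. The sign of 10 members changed, and 9 members, in place of 17, did not overlap between the groups, where 35% of all genes did not in that setting, in place of 42.5%.

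**Figure D5:**
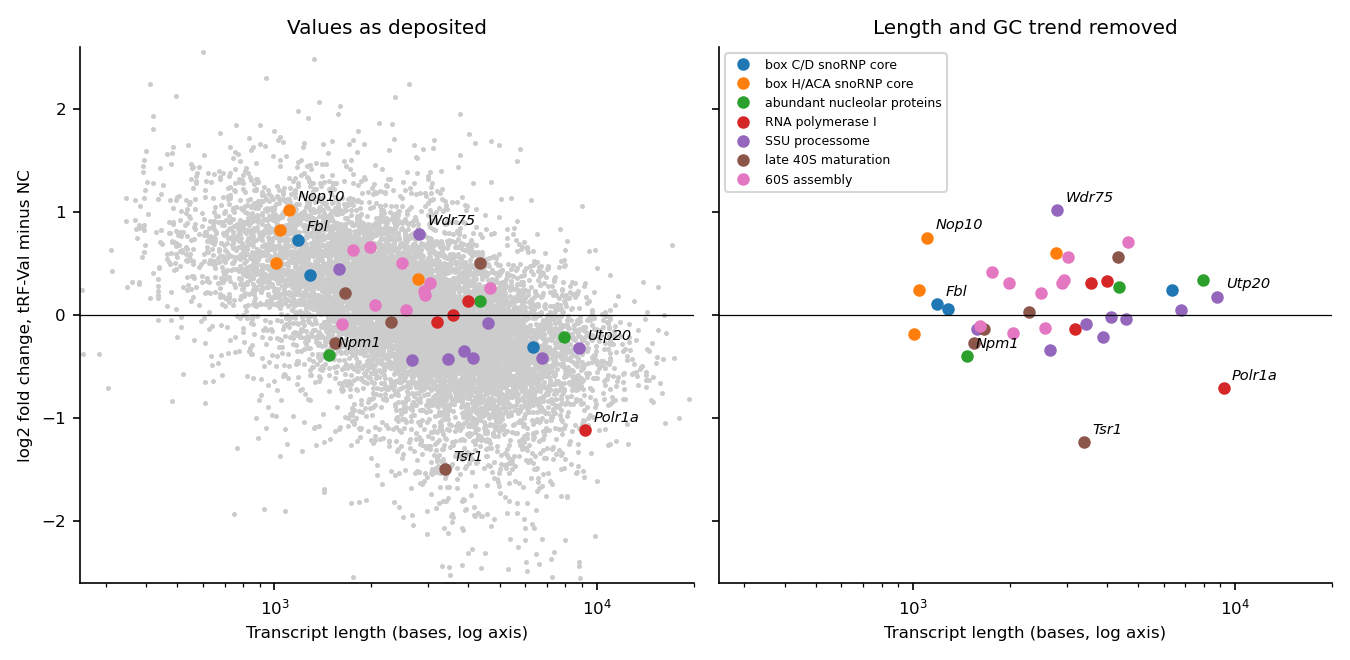
Log2 fold change, tRF-Val minus NC, against abundance-weighted transcript length on a log axis, with values as deposited on the left (grey, all genes tested, 24 of them beyond the axes; coloured, the 38 members by role) and after removal of each library's trend with length and GC content on the right. On the left short members such as Nop10 and Fbl lie above 0 and long ones such as Utp20 and Polr1a below it, along the grey cloud; on the right Tsr1 at -1.23 and Polr1a at -0.71 remain the lowest and Wdr75 at 1.02 is the highest.

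Several members also carry snoRNA genes inside their own transcription units. In GENCODE M21, 7 of the 38 hold 21 annotated snoRNA genes on their own strand, with 5 in Nop56, 4 in Nop58, 3 each in Ncl, Wdr43 and Gnl3, 2 in Tsr1 and 1 in Dkc1. Of these hosts only Nop56 and Dkc1 had positive fold changes with all libraries. Nop58 and Ncl were positive as well without NC 3, at 0.01 and 0.06, and with the length and GC trend removed, at 0.25 and 0.34. Wdr43, Gnl3 and Tsr1 stayed negative in both settings. The 72 listed transcripts of the members were all protein-coding. The snoRNAs are annotated as genes of their own, and no values are given for them here. In 15 members an annotated gene overlaps on the other strand, over 5 bases in Nop56 and up to 12804 in Pes1. These are overlaps of whole gene spans, introns included, and overlap of exons was not measured. Their values are uncertain to the extent that exons are shared and counting did not use strand.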

How the data were processed

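The submitters' processing notes list cutadapt, HISAT2 2.1.0 and StringTie and name a human build, GRCh38. Annotation and settings were not given in the sources used here. A stranded kit was used, per the labels' protocols; their text also speaks of joint tissue, unlike each sample's own label. The authors deposited 1 signal value for each transcript in each library, library-scaled, without naming it as FPKM or TPM. Of 30813 rows the 9210 human ones were left out. Of the 21603 mouse IDs 21558 matched GENCODE M21 (GRCm38), ignoring versions. In every mouse row the higher group mean is 0.5 or more, so weaker transcripts are absent from the sums.

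Sums per symbol averaging 1 or more entered limma 3.58.1 (R 4.3.3; trend, robust) as log2(sum + 1), which understates changes of low genes. The design had the 2 groups alone; tests were two-sided. Exact permutation of 3 against 3 libraries reaches p = 0.1 at best and was not used. Alternatives covered the pseudocount, filter, scaling, moderation, replicate block, transcript choice, a loess (span 0.3) on length and GC content, and each library left out. The labels name no batch. Members and lists were chosen with earlier results of these data known. By rule, in each role, values in every library are given for the members with the smallest p, the highest mean and the extreme fold changes, and in each list of other genes the 2 with the smallest p are named.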

Additional observations from a re-analysis of the deposited data

How the results depend on the processing

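Of 38 members, 0 were called with all libraries and under each of the 17 alternatives except the fit without NC 3, which called 1 (Rrp1); left-out libraries gave 0 to 1. Calls over all genes, 6 higher and 21 lower, moved to 2 and 3 with a pseudocount of 0.1, 1 and 1 with a filter of a mean of at least 5, 15 and 23 with median scaling, 22 and 49 with quantile normalization, 23 and 185 after rescaling without mitochondrial transcripts, 21 and 35 with the length and GC trend removed, and 9 and 38 without trend and robust moderation. They were 31 and 84 with the most abundant transcript only, 0 to 284 higher and 3 to 309 lower with 1 library left out, and 62 and 52 with the trend removed and NC 3 left out, an alternative chosen after seeing the data. With no filter they were 6 and 23.

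With the replicate number as a block 0 genes were called higher and 0 lower, with 6 of 38 members at an unadjusted p under 0.05, where 23.6% of all genes were. Same-numbered libraries had correlations of deviations of -0.0297, 0.0161 and -0.00948 and none matched its own number best, so the numbers were not taken as pairs.

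The members' median of 0.12 was -0.02 under quantile normalization, 0.17 with median scaling, and -0.13, with 14 of 38 positive, after rescaling without mitochondrial transcripts, which moved the median of all genes to -0.20. It was 0.04 to 0.14 with 1 library left out. With the length and GC trend removed the members' median was 0.08, with 22 of 38 positive, against 0.03 and 53.3% over all genes. With NC 3 also left out it was 0.17, with 28 of 38 positive, against 0.04 and 53.9% over all genes. Members not overlapping went from 17 to 9 with the trend removed, where fewer of all genes were free of overlap too; this was not counted under quantile normalization and with the trend removed and NC 3 left out. Other genes of the pathway gave 1 call with the most abundant transcript only, 0 to 4 with 1 library left out, and 2 with the trend removed and NC 3 left out. The cause of these moves was not tested.

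Of 357 fold changes of 21 members under the alternatives 14 changed sign. Rescaling without mitochondrial transcripts gave -0.12 for Mybbp1a and -0.10 for Polr1b. Removing the trend gave 0.25 for Nop58 and -0.18 for Gar1, and with NC 3 also left out 0.46 for Nop58, 0.09 for Ubtf and 0.10 for Wdr43. The most abundant transcript only gave 0.10 for Nop58. With 1 library left out, Nop58 ran from -0.49 to 0.01 (above 0 without NC 3), Polr1b from -0.11 (without NC 3) to 0.28, Mybbp1a from -0.11 (below 0 without tRF-Val 1 and, at -0.07, without tRF-Val 3) to 0.58, Ubtf from -0.17 to 0.09 (above 0 without tRF-Val 2) and Gnl3 from -0.19 to 0.03 (above 0 without tRF-Val 1). Depth is unknown, so no limit from counting can be given.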
